A study of Mus musculus with 7 samples.

Results

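Cyclin-dependent kinase (CDK) inhibitors are the proteins that bind the kinases driving the cell cycle and hold them inactive. The 7 genes described here were chosen by symbol: Cdkn1a, Cdkn1b, Cdkn1c, Cdkn2a, Cdkn2b, Cdkn2c and Cdkn2d, all 7 of which have a row among the 31053 genes of the count matrices. They were followed in single cells of the postnatal and adult mouse brain, between dividing and non-dividing cells of each class and across 7 libraries. Each library is a Chromium Single Cell 3′ library, in which every RNA molecule caught carries a unique molecular identifier (UMI).

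Of the libraries, 4 are early postnatal and 3 are adult. The early ones are P2 cortex, P7 cortex and P15 cortex from CD1 mice and P7 SVZ from C57BL/6 mice. Those labelled cortex held the tissue above the lateral ventricles, with its grey and white matter and the ventricular-subventricular zone (V-SVZ), while the P7 SVZ library came from the dorsal and lateral V-SVZ. The adult libraries, all CD1, are P60 cortex, P60 grey matter and P60 white matter, of which the last includes the corpus callosum and the V-SVZ. No library had a treatment or an engineered allele. Nothing in the labels ties each library to its own animals. The p-values therefore measure only the spread between these libraries, and age, sex and sequencing depth differ between them.

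The libraries held 10074763 to 45668007 UMIs in total, and 20697 cells passed the filters, with a median of 2791 to 9530.5 UMIs per cell. Cells over the mitochondrial limit were 39.8% of the barcodes in P7 SVZ and 21.4% in P60 grey matter, against 4.31% to 16.5% in the other 5. Libraries shared 140 barcodes, with at most 23 between any pair. Clustering without the 7 genes and the listed cell cycle genes gave 58 clusters. They were named from marker genes as classes "like" a cell type, and 5 clusters with 790 cells stayed unnamed. The 3 largest classes were astrocyte-like (3841 cells), microglia-like (3638) and neural precursor-like cells (2025). Oligodendrocyte precursor cell (OPC)-like cells numbered 1789, neuroblast-like cells 1956 and committed oligodendrocyte precursor (COP)-like cells 922.

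The INK4 proteins p15 (Cdkn2b), p16 (Cdkn2a), p18 (Cdkn2c) and p19 (Cdkn2d) bind CDK4 and CDK6 and keep them from pairing with D-type cyclins, so that the retinoblastoma protein stays bound to E2F transcription factors. The CIP/KIP proteins p21 (Cdkn1a), p27 (Cdkn1b) and p57 (Cdkn1c) bind cyclin-CDK complexes more broadly, CDK2 complexes included. In the brain, p27 and p57 are known for the exit of OPCs and neural progenitors from the cycle, p18 and p19 for the cycling and later the quiescence of neural progenitors, and p21 as a target of p53. Cdkn2a also encodes the ARF protein from another first exon in another reading frame, and 3′ counts cannot separate the p16 and ARF transcripts.

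In the mm10 annotation, Cdkn2a lies at chr4:89274471-89294653 and Cdkn2b at chr4:89306299-89311039, both on the minus strand with 11645 bases between them. Cdkn2c lies on the same chromosome at chr4:109660876-109667189 (minus strand). The other 4 are on separate chromosomes: Cdkn1a at chr17:29090976-29100727 (plus), Cdkn1b at chr6:134920401-134925513 (plus), Cdkn1c at chr7:143458339-143461050 (minus) and Cdkn2d at chr9:21288410-21291407 (minus).

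Stretches before a start site of 5 of these genes are shown because they belong to the genes the results turn on: Cdkn2c and Cdkn2d, which rose together in dividing cells, Cdkn1a and Cdkn2b, which rose together in adult OPC-like cells, and Cdkn2a, the neighbour of Cdkn2b. They come from the RefSeq promoter table (build GRCm38.p6), which held 6 of the 7 genes, and each is the part of the 250 bases before a start site that holds no annotated exon base. For Cdkn2c this is a downstream start inside the gene, since the window of its upstream start lies wholly in annotated exons. Capitals mark letters that matched a motif on either strand. The motifs searched were E2F letters (TTTCCCGC, TTTGGCGC, TTTCGCGC or TTTGCCGC), the cell cycle homology region (CHR, TTTGAA or TTCGAA), and a p53 motif (ACATGT, any 4 bases, ACATGT, chosen after the Cdkn1a sequence had been seen). All are written 5′ to 3′ on the strand of the gene.
Cdkn1a, chr17:29090729-29090975, plus strand: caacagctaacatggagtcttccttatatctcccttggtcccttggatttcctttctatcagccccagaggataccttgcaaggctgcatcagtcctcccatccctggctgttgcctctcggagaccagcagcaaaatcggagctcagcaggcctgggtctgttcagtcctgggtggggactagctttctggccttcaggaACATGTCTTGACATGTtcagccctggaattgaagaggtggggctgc
Cdkn2a, chr4:89294654-89294869, minus strand: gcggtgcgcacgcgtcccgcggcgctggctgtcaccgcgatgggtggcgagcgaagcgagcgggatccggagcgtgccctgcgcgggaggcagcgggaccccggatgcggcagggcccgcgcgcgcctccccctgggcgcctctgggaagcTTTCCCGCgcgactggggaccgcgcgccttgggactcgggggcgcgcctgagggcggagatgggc
Cdkn2b, chr4:89311040-89311282, minus strand: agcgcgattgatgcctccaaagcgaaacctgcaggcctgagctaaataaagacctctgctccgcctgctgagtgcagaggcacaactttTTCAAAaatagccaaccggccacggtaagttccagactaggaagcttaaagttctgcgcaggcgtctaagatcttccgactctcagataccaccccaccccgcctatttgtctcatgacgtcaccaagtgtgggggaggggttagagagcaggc
Cdkn2c, downstream start, chr4:109665373-109665609, minus strand: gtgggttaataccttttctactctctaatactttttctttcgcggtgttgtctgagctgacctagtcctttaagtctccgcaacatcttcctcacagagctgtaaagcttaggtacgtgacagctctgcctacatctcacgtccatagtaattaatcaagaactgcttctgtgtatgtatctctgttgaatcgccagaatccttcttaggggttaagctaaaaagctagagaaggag
Cdkn2d, chr9:21291408-21291459, minus strand: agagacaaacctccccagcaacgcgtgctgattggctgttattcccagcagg

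The p53 letters were found before the upstream start of Cdkn1a, with 4 of the 32851 windows of this length in the table holding them (0.012%). Since these letters were chosen after that sequence had been seen, the match was fixed in advance and nothing is read from its rarity. The E2F letters were found before the upstream start of Cdkn2a, and 1.86% of all windows held one of them. The CHR letters were found before Cdkn2b, on the other strand, and 17.1% of all windows held them. The windows of Cdkn1b, Cdkn2c, Cdkn2d and the downstream starts of Cdkn1a and Cdkn2a held none of these letters. This says only that the letters are not in these 250 bases.

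Levels were first described by class, in CPM, the field's usual scaling of a gene's UMIs by the total UMIs, over the summed cells of a class in a library with at least 20 cells. Classes come from clustering the same cells, so their order is a description without a test, and levels of different genes are not compared.

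Among the INK4 genes, Cdkn2c was highest in the classes that hold dividing cells. Its median over libraries was 67.4 CPM in neural precursor-like cells, 62.7 in neuroblast-like cells, 48.7 in excitatory intermediate precursor-like cells and 46.5 in OPC-like cells. These 4 medians do not stand apart, since the neural precursor-like values alone ran from 28.8 CPM in P7 SVZ to 163 in P60 white matter. In the 3 classes of neurons, the medians were 0.692 CPM or lower. In microglia-like cells, 1 library stood out, with 97.0 CPM in P7 cortex against a median of 14.8.

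Cdkn2d had a broader pattern. Neuroblast-like cells had a median of 130 CPM (81.2 to 162), and classes that rarely or never met the dividing call came close: 126 CPM in striatal neuron-like, 114 in mature oligodendrocyte-like and 109 in excitatory neuron-like cells. The excitatory neuron-like range (77.0 to 226 CPM) and the neuroblast-like range overlapped. OPC-like and COP-like cells had 72.5 and 72.0 CPM. Macrophage classes were lowest, with a median of 20.7 CPM in microglia-like (8.99 to 37.8) and 11.6 in border-associated macrophage-like cells.

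Cdkn2b was concentrated in endothelial-like cells, which had 158 CPM in P7 cortex, 217 in P15 cortex, 172 in P60 cortex, 93.7 in P60 grey matter and 107 in P60 white matter. These cells held 344 of the 537 Cdkn2b UMIs in all kept cells. Ependymal-like cells, from a single library, had 15.5 CPM, and every other class had a median of 2.91 CPM or lower. Cdkn2a was rare, with 155 UMIs in all kept cells. Its highest level in any class and library was 11.3 CPM (34 UMIs), in microglia-like cells of P7 cortex.

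Among the CIP/KIP genes, Cdkn1a was highest in endothelial-like cells, with a median of 1286 CPM. Ependymal-like cells, from a single library, had 246 CPM. Microglia-like cells had a median of 147 CPM and a wide spread between libraries: 147 in P2 cortex, 94.7 in P7 cortex, 536 in P7 SVZ, 39.9 in P15 cortex, 50.1 in P60 cortex, 447 in P60 grey matter and 154 in P60 white matter. The 2 libraries with the highest microglia-like levels were the 2 that lost most barcodes to the mitochondrial limit. The part of tissue handling in the Cdkn1a levels was not tested. COP-like cells had the lowest median, 3.20 CPM, with 1.85 to 4.43 CPM over 6 libraries, and OPC-like cells the next lowest, 4.58 CPM.

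Cdkn1b was highest in neuroblast-like cells (median 125 CPM, 51.9 to 242) and excitatory intermediate precursor-like cells (118 CPM, 76.4 to 515), followed by neural precursor-like cells (64.2 CPM). Interneuron-like (54.9 CPM, 2 libraries), astrocyte-like (53.5), mural-like (51.6) and OPC-like cells (38.6) came next. The ranges of neighbours in this order overlapped. Microglia-like cells had a median of 17.0 CPM, and in P2 cortex no UMI was found.

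Cdkn1c was highest in endothelial-like cells (median 319 CPM, 85.2 to 426) and mural-like cells (112 CPM, 39.5 to 304). In the oligodendrocyte lineage, COP-like cells stood above OPC-like cells in 5 of 6 libraries. COP-like cells had 289 CPM in P2 cortex, 127 in P7 cortex, 176 in P7 SVZ, 54.9 in P15 cortex, 25.3 in P60 cortex and 39.9 in P60 white matter. OPC-like cells of the same libraries had 30.9, 25.8, 45.1, 51.5, 27.2 and 19.3 CPM, and those of P60 grey matter had 62.9. The gap was widest in the first postnatal week and small at P15 and in P60 cortex. Mature oligodendrocyte-like cells, found in 4 libraries, had 68.3 CPM in P15 cortex and 19.7 to 41.7 in the adult libraries.

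Within COP-like cells, Cdkn1c differed between clusters of the same library. The cluster with Gpr17, Bmp4 and Nkx2-2 among its leading genes had 376 CPM in P2 cortex, 163 in P7 cortex and 172 in P15 cortex. The cluster led by Enpp6 and Bmp4 had 125 CPM in P7 cortex, 52.5 in P15 cortex, 22.7 (7 UMIs) in P60 white matter and 4.17 (1 UMI) in P60 cortex, and a P15 cluster with Nfasc and Adamts4 among its leading genes had 21.3. Another cluster with Enpp6 and Bmp4 among its leading genes, almost all from P7 SVZ, had 191 CPM there. That is above the Gpr17 cluster in P7 and P15 cortex. The libraries thus differed in which clusters their COP-like cells lay in, and within the cluster led by Enpp6 and Bmp4 the later libraries had the lower values.

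**Figure D1:**
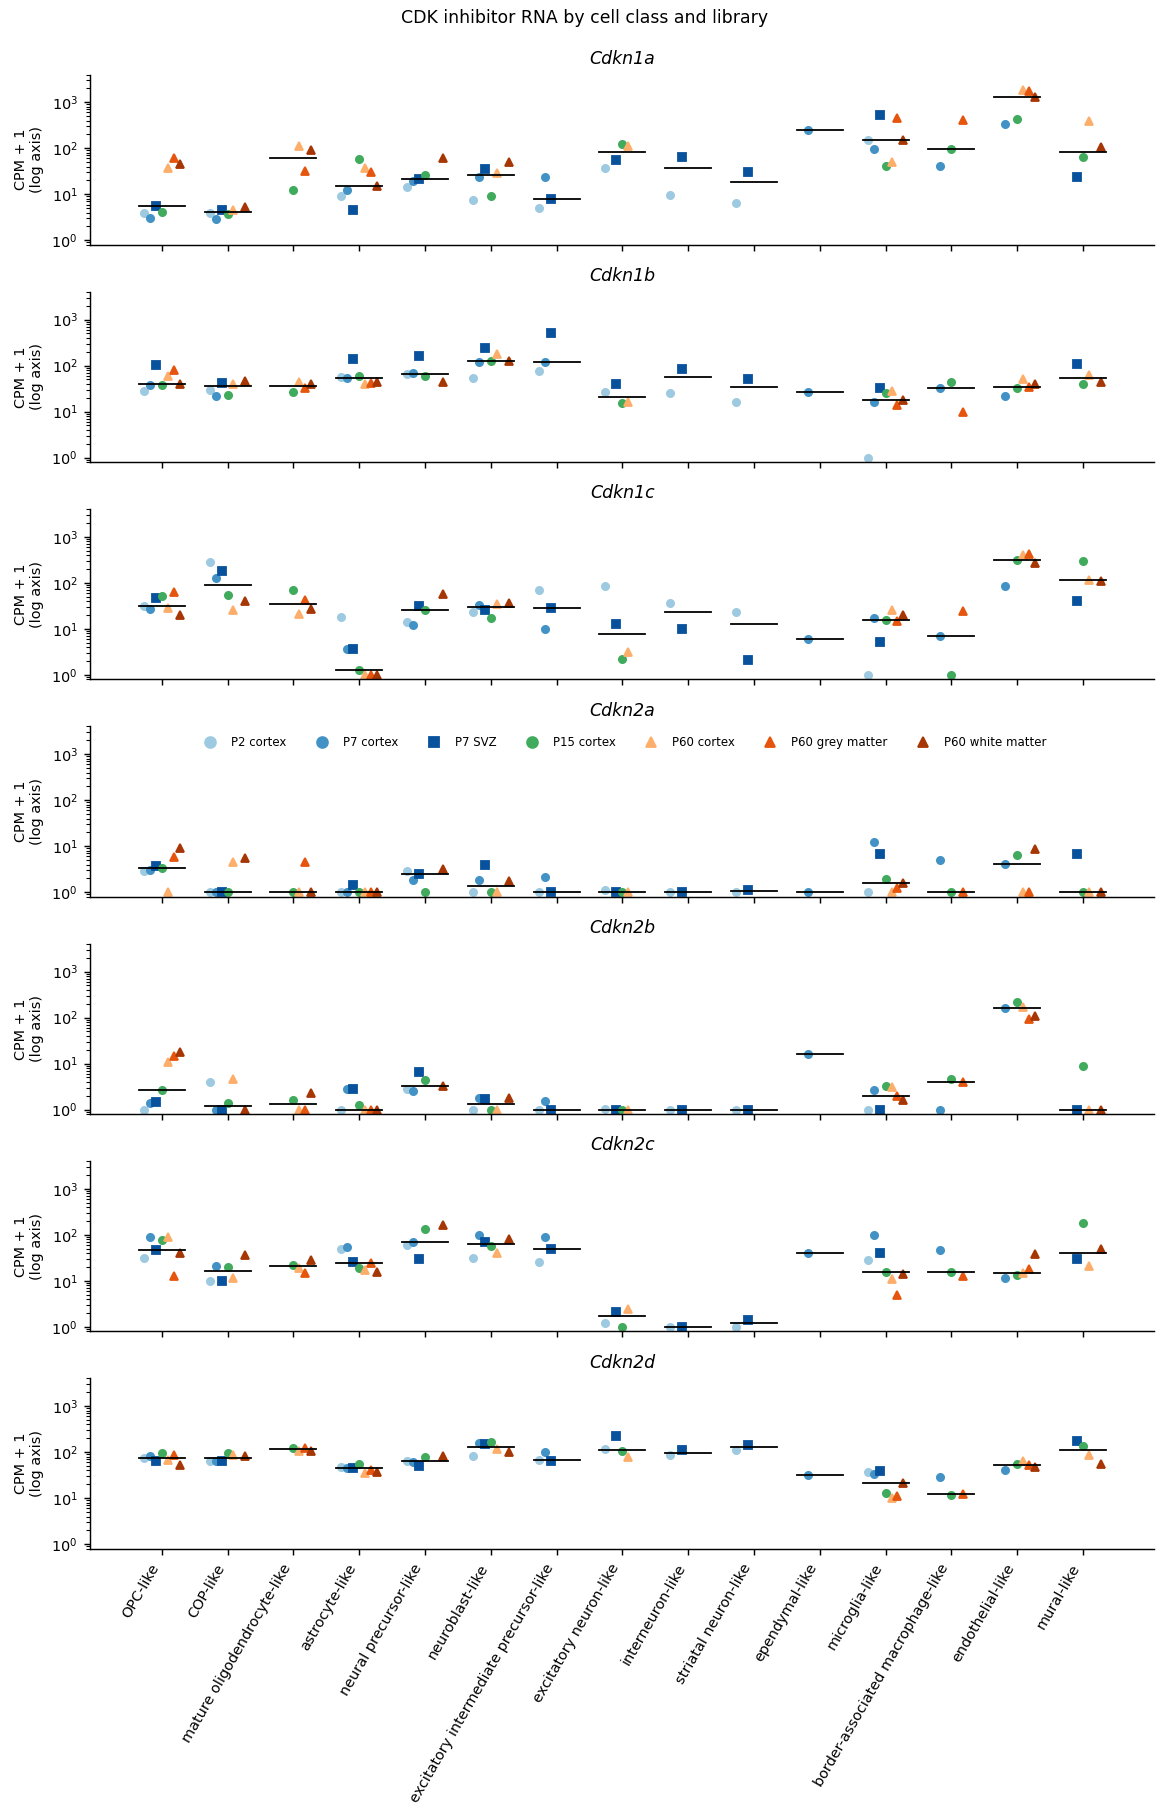
RNA of the 7 CDK inhibitor genes by cell class, as CPM + 1 on a log axis, with a point per library (circles and squares early, triangles adult) and a bar at the median of the libraries. Cdkn1a and Cdkn2b peak in endothelial-like cells (medians of 1286 and 158 CPM), Cdkn1b and Cdkn2d in neuroblast-like cells (125 and 130 CPM), and Cdkn2a stays at 11.3 CPM or lower.

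The main comparison asked how the inhibitors differ between dividing and non-dividing cells of the same class. Each cell was thinned to 2000 UMIs, and it was called dividing with at least 3 UMIs from 59 genes of S and G2/M phase and non-dividing with 0. None of the 7 inhibitors is among those genes. By this rule 32.6% of neuroblast-like, 23.9% of neural precursor-like, 21.1% of OPC-like, 17.6% of excitatory intermediate precursor-like, 5.95% of microglia-like and 3.0% of astrocyte-like cells were dividing. COP-like cells had 7 dividing cells among 892 that were deep enough, and mature oligodendrocyte-like, striatal neuron-like and interneuron-like cells had none. Ependymal-like cells also reached the rule (31.0%), but these cells carry many cilia and are known to use cell cycle genes without dividing, and they were not compared.

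Dividing and non-dividing cells lay partly in different clusters. Of the dividing OPC-like cells, 37.0% were in cluster 39 and 12.4% in cluster 53, which held no non-dividing cells, and the rest shared clusters 8, 15 and 20 with the non-dividing ones. Dividing neural precursor-like cells were mostly in clusters 17 and 24 and non-dividing ones in clusters 7 and 16. For neuroblast-like cells these were clusters 22 and 30 against clusters 5 and 11. The marker of proliferation Mki67 had a mean of 306 ± 90.0 CPM in dividing and 1.55 ± 1.43 in non-dividing OPC-like cells (SD, n = 4 libraries), and Top2a, the topoisomerase of replicating cells, 627 ± 121 and 3.04 ± 2.81. Both take part in the call and are given only to show what it separates.

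The INK4 genes Cdkn2c and Cdkn2d rose in dividing cells of all 3 classes tested, and in every library. In OPC-like cells, Cdkn2c had 108 CPM in dividing against 3.57 in non-dividing cells of P2 cortex, 218 against 21.9 in P7 cortex, 106 against 14.7 in P7 SVZ and 262 against 12.03 in P15 cortex. The lowest dividing value was over 4 times the highest non-dividing one, so the groups did not overlap. The means were 173 ± 78.7 and 13.1 ± 7.58 CPM (SD, n = 4 libraries), a difference of 3.67 ± 0.17 on the log2 scale (SE; 12.8-fold; edgeR's quasi-likelihood test with library as a block, Benjamini-Hochberg adjusted p = 3.43e-22).

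Cdkn2d behaved alike with a smaller ratio. Its CPM in dividing and non-dividing OPC-like cells were 156 and 46.4 in P2 cortex, 161 and 39.9 in P7 cortex, 112 and 41.3 in P7 SVZ, and 199 and 65.0 in P15 cortex. Again no dividing value reached down to a non-dividing one. The difference was 1.70 ± 0.12 (log2 ± SE; 3.25-fold; edgeR, adjusted p = 6.12e-16).

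Neural precursor-like cells showed the same direction. Cdkn2c had 131 against 16.4 CPM in P2 cortex, 140 against 20.6 in P7 cortex, 66.4 against 13.9 in P7 SVZ and 193 against 55.4 in P15 cortex, which is 2.65 ± 0.18 on the log2 scale (edgeR, adjusted p = 4.19e-13). Cdkn2d had 110 against 34.5, 104 against 36.2, 56.3 against 45.9 and 112 against 35.6 CPM in the same order (1.3 ± 0.2, adjusted p = 1.21e-05). The dividing and non-dividing values did not overlap for either gene, and the smallest Cdkn2d gap was in P7 SVZ.

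In neuroblast-like cells, Cdkn2c had 171 against 7.94 CPM in P7 cortex, 98.8 against 4.40 in P7 SVZ and 148 against 51.7 in P60 white matter (3.17 ± 0.64, edgeR, adjusted p = 0.0272). The non-dividing level in the adult library was thus several times that in the early ones. Cdkn2d had 243 against 53.3, 192 against 51.0 and 229 against 48.3 CPM (2.14 ± 0.16, adjusted p = 4.53e-08), with non-dividing values that ran only from 48.3 to 53.3.

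In the remaining classes with dividing cells only 2 libraries had enough of them, so their means are given without a test. Cdkn2c averaged 207 CPM in dividing and 34.6 in non-dividing astrocyte-like cells, 145 and 14.6 in excitatory intermediate precursor-like cells, and 158 and 11.1 in microglia-like cells. Cdkn2d averaged 108 and 39.0, 124 and 60.4, and 73.3 and 11.0 CPM in those classes. In each of these 12 library pairs the dividing cells were higher.

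The share of all tested genes past the same threshold gives the scale for these calls. In OPC-like cells 23.0% of 9731 genes passed (13.2% higher and 9.81% lower in dividing cells), and 4 of the 7 inhibitors had enough counts to be tested, of which 2 rose and none fell. Among neural precursor-like cells 58.5% of 10535 genes passed (29.7% higher and 28.8% lower), and 3 of 5 tested inhibitors rose. In neuroblast-like cells 37.0% of 8987 genes passed (19.5% higher and 17.6% lower), and again 3 of 5 rose. In the last 2 classes, passing the threshold is thus common among all genes. Dividing cells also held more RNA, for example a median of 10004 UMIs against 7302 in OPC-like cells of P7 cortex. CPM removes that difference in total only.

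Whether the change differs between classes was tested for OPC-like against neural precursor-like cells, where 31.1% of 11066 genes passed (14.5% with a higher and 16.6% with a lower value in OPC-like cells). Of 5 tested inhibitors, 2 passed. The Cdkn2c difference was larger in OPC-like cells by 0.97 ± 0.31 (log2 ± SE; edgeR interaction test, adjusted p = 0.0170), with a higher dividing mean and a lower non-dividing mean in OPC-like cells. For Cdkn2d the same test gave 0.38 ± 0.24 (adjusted p = 0.241), with a 95% interval from -0.09 to 0.86. Neuroblast-like cells shared too few libraries with OPC-like cells for this test.

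The other 2 INK4 genes were rare. Cdkn2a had 2 UMIs in dividing and 0 in non-dividing OPC-like cells of P2 cortex, 2 and 1 in P7 cortex, 8 and 2 in P7 SVZ, and 7 and 0 in P15 cortex. Neural precursor-like cells had 5, 5 and 7 UMIs in dividing cells of P2 cortex, P7 cortex and P7 SVZ and none in the non-dividing cells of these libraries, where a count of 0, taken as at most 3 UMIs of the sum, allows up to 1.16 to 2.58 CPM. In P15 cortex neither had any. Most Cdkn2a UMIs in these pairs were therefore in dividing cells, but the gene passed the count filter in none of these comparisons.

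Dividing microglia-like cells of P7 cortex held 27 Cdkn2a UMIs (20.6 CPM, 95% Poisson interval 13.6 to 29.97) against 2 in non-dividing ones (2.18 CPM, 0.263 to 7.86). In P7 SVZ they held 5 and 2, with intervals that overlap. These intervals cover counting error only.

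Cdkn2b went the other way in its few counts. Dividing OPC-like cells had 0 UMIs in all 4 libraries, and non-dividing ones had 0, 1, 1 and 5. By the same limit of 3 UMIs, the 0 counts allow up to 1.94 to 11.2 CPM, so a difference was not detectable at this depth. Neural precursor-like cells averaged 0.942 CPM in dividing and 4.31 in non-dividing cells, lower in dividing cells of 4 of 4 libraries, with at most 3 UMIs in any dividing sum.

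**Figure D2:**
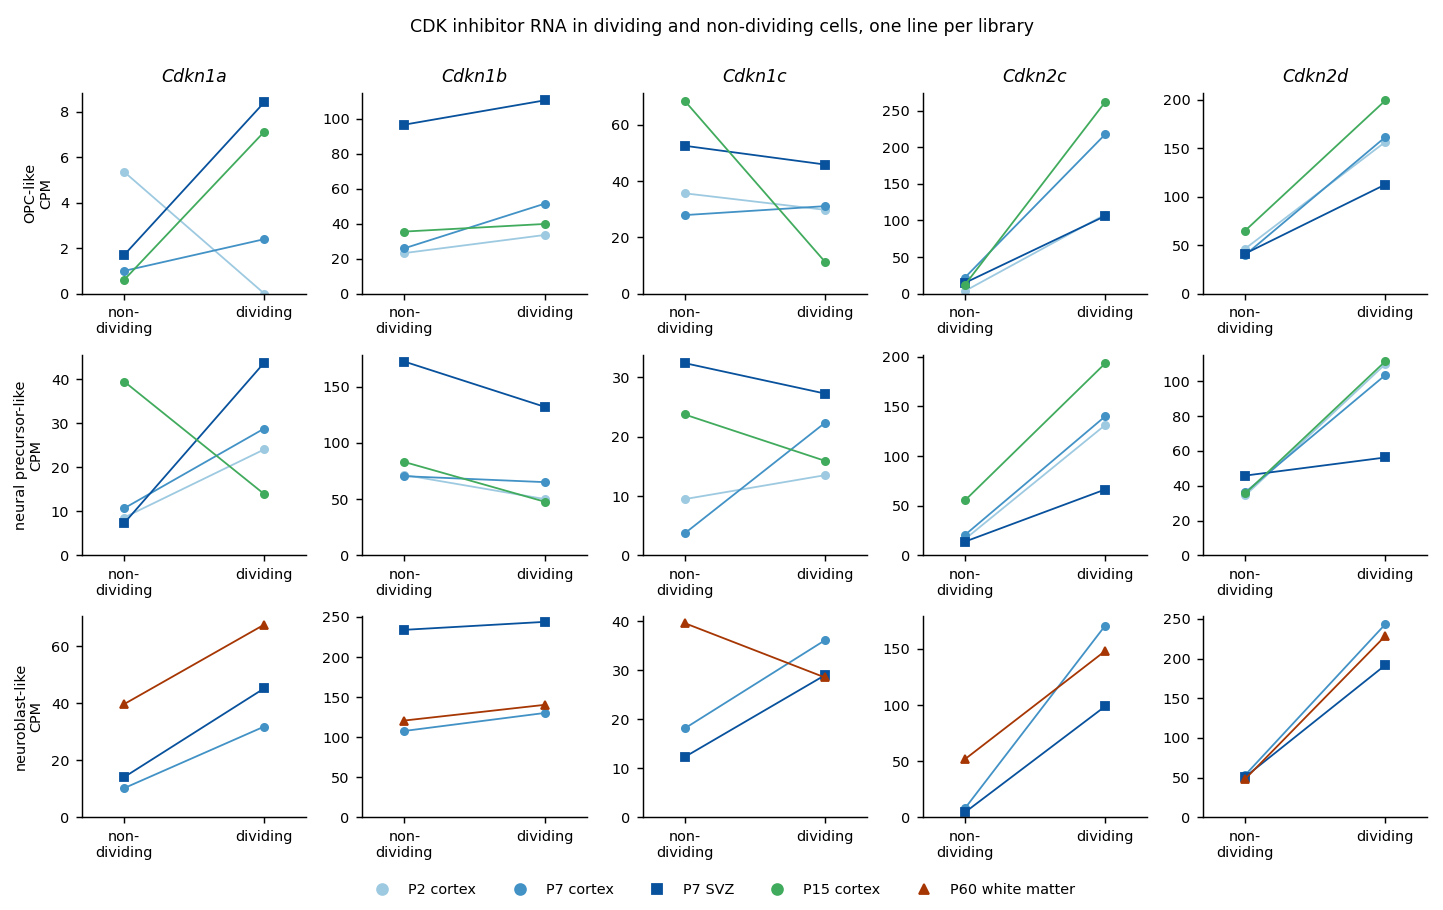
CPM of 5 CDK inhibitor genes in non-dividing (left) and dividing (right) cells of OPC-like, neural precursor-like and neuroblast-like cells, with a line per library on linear axes that start at 0 and differ between panels. All 11 lines of Cdkn2c and all 11 of Cdkn2d go up, while those of Cdkn1b and Cdkn1c rise in some panels and fall in others.

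The CIP/KIP genes were less uniform. Cdkn1b had no call in any of the 3 classes tested. In OPC-like cells it had 33.5 against 23.2 CPM in P2 cortex, 51.4 against 25.9 in P7 cortex, 111 against 96.7 in P7 SVZ and 39.8 against 35.5 in P15 cortex. That is higher in 4 of 4 libraries but by less than the spread between libraries, and the difference of 0.38 ± 0.15 (log2 ± SE) did not pass (edgeR, adjusted p = 0.0568). It passed with a stricter dividing call of at least 5 list UMIs (0.50, adjusted p = 0.0228).

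In neural precursor-like cells Cdkn1b was lower in dividing cells of 4 of 4 libraries, with 50.1 against 71.5, 65.1 against 70.4, 132 against 172 and 47.8 against 83.0 CPM (-0.25 ± 0.15, edgeR, adjusted p = 0.151). Scaled by library size alone, the difference was -0.35 (adjusted p = 0.0476). In neuroblast-like cells it was 0.21 ± 0.15 (adjusted p = 0.273). The interaction test between OPC-like and neural precursor-like cells passed for Cdkn1b (0.61 ± 0.21, edgeR, adjusted p = 0.0251), so the 2 differences differed from each other although neither passed on its own.

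Cdkn1c had no call in any of the 3 classes. In OPC-like cells it had 29.8 against 35.7 CPM in P2 cortex, 31.1 against 27.9 in P7 cortex, 45.9 against 52.6 in P7 SVZ and 11.4 against 68.6 in P15 cortex (-0.56 ± 0.27, edgeR, adjusted p = 0.160). The P15 pair stands apart from the other 3. Among cells with at most 5% mitochondrial UMIs the difference passed (-1.33, adjusted p = 0.000535), and without a filter on low counts too (-0.56, adjusted p = 0.0199).

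The Cdkn1c difference was 0.67 ± 0.43 in neural precursor-like cells (edgeR, adjusted p = 0.218) and 0.74 ± 0.31 in neuroblast-like cells (adjusted p = 0.0706). The neural precursor-like value rested on single libraries: it was 1.35 without P7 SVZ (adjusted p = 0.0172) and -0.06 without P7 cortex (adjusted p = 0.891). In neuroblast-like cells it was 1.13 without P60 white matter (adjusted p = 0.0134).

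Cdkn1a rose in dividing cells of 2 of the 3 classes tested. Neural precursor-like cells had 24.1 against 8.62 CPM in P2 cortex, 28.9 against 10.7 in P7 cortex, 43.8 against 7.32 in P7 SVZ and 13.9 against 39.5 in P15 cortex, so P15 went the opposite way and the groups overlapped. The difference was 1.66 ± 0.44 (edgeR, adjusted p = 0.0101), and it no longer passed with DESeq2 (1.26, adjusted p = 0.0512) or without P7 cortex (1.66, adjusted p = 0.0968). Neuroblast-like cells had 31.8 against 10.2 CPM in P7 cortex, 45.2 against 14.1 in P7 SVZ and 67.6 against 39.7 in P60 white matter. All 3 pairs rose (1.41 ± 0.27, adjusted p = 0.000689), though not past the threshold without the library block (1.23, adjusted p = 0.158).

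In OPC-like cells Cdkn1a was too rare to be tested, with 0 UMIs in dividing and 3 in non-dividing cells of P2 cortex, 2 and 1 in P7 cortex, 13 and 3 in P7 SVZ, and 5 and 1 in P15 cortex. In the classes with 2 libraries, given without a test, Cdkn1a was higher in dividing cells of each pair. Astrocyte-like cells had 16.7 against 5.85 CPM in P2 cortex and 27.9 against 7.28 in P7 cortex, and excitatory intermediate precursor-like cells 8.71 against 2.19 and 48.4 against 1.80 (38 UMIs against 1). Microglia-like cells had 114 against 71.8 CPM in P7 cortex and 706 against 473 in P7 SVZ. Several of these sums hold 4 or fewer UMIs, and the Poisson intervals of the P2 pairs overlap.

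Cdkn1b in excitatory intermediate precursor-like cells was lower in dividing cells of both libraries, with 52.3 against 78.7 CPM in P2 cortex and 86.6 against 162 in P7 cortex. In microglia-like cells it was higher in both, with 16.02 against 11.96 in P7 cortex and 46.4 against 27.6 in P7 SVZ, but the intervals overlap in each library. Astrocyte-like cells were split, with 39.0 against 65.8 in P2 cortex and 73.96 against 51.8 in P7 cortex. Cdkn1c was lower in dividing excitatory intermediate precursor-like cells of both libraries (26.1 against 70.7 and 6.37 against 12.6 CPM). For Cdkn1b the intervals of the P2 pair overlap, and for Cdkn1c those of the P7 pair.

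Of the genes fixed as p53 targets, none of 14 tested rose and 1, Bbc3, which encodes the cell death protein PUMA, fell (-1.62) in dividing OPC-like cells. In neural precursor-like cells 5 of 18 rose and 5 fell, close to the 29.7% and 28.8% over all genes tested. The largest changes were those of Perp (-4.21), Pidd1 (2.67), Trp53inp1 (-2.63) and Tigar (2.34), and Mdm2, the gene of the main p53 ligase, rose by 0.50 ± 0.19. Trp53 itself rose too (1.27 ± 0.15, edgeR, adjusted p = 2.08e-08). The genes of the dissociation response, switched on when tissue is taken apart, mostly fell in dividing neural precursor-like cells (17 of 25 fell and 5 rose, median -1.12 against 0.01 over all genes tested). Their part in the Cdkn1a values was not tested.

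The genes that the inhibitors act on moved in ways that differed by class. The share of all tested genes that rose in dividing cells was 13.2% in OPC-like, 29.7% in neural precursor-like and 19.5% in neuroblast-like cells. Among the D-type cyclins and their kinases, 4 of 5 rose in dividing neural precursor-like cells: Cdk6 (2.68), Ccnd1 (2.54), Ccnd2 (2.25) and Cdk4 (1.83), in log2. In dividing OPC-like cells only Cdk4 (0.41 ± 0.08) and Ccnd3 (0.40 ± 0.11) passed, and Ccnd1 and Ccnd2 had differences of 0.01 ± 0.11 and 0.07 ± 0.11. In the interaction test, 4 of the 5 were lower in OPC-like than in neural precursor-like cells. Neuroblast-like cells had 4 of 5 higher, with Cdk6 at 3.77 and Ccnd2 at 1.29.

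The cyclins and kinases of later phases and the E2F group rose in most cases. In OPC-like cells 6 of 11 cyclins and kinases rose and 1 fell, led by Ccnb1 (8.38), Ccna2 (7.50), Ccne1 (3.05) and Cdc25b (2.65), and Cdk2 rose by 1.98 ± 0.31. Of the pocket proteins and E2Fs, 10 of 15 rose and none fell, among them E2f1 (6.62), E2f7 (5.96) and Rbl1 (2.56), the gene of p107. Rb1 itself had 0.23 ± 0.20 (edgeR, adjusted p = 0.467) in OPC-like, -0.08 ± 0.20 in neural precursor-like and 1.21 ± 0.24 in neuroblast-like cells, where it passed (adjusted p = 0.000804). In neural precursor-like cells 11 of 16 of this group rose and 1 fell, and in neuroblast-like cells 11 of 16 rose and none fell.

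Genes listed for inhibitor turnover were also followed, and what their changes mean for the inhibitor proteins was not tested. In OPC-like cells 2 of 11 rose: Skp2, the ubiquitin ligase subunit that recognises p27 (1.58), and Fzr1, the activator of the anaphase-promoting complex in G1 (1.39). Of the 12 tested in neural precursor-like cells 6 rose, led by Skp2 (2.09) and Fbxw7 (1.35). In neuroblast-like cells 3 of 11 rose, Skp2 among them (2.002), and 1 fell. Over all genes tested, 13.2% rose in OPC-like, 29.7% in neural precursor-like and 19.5% in neuroblast-like cells. The OPC-like and neuroblast-like turnover counts lay near these shares. Of the upstream regulators, Ezh2, a Polycomb methyltransferase known to silence the Cdkn2a locus, rose in OPC-like (1.597) and neural precursor-like cells (2.68), and Cbx7, another Polycomb gene, fell in the latter (-2.52).

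Dividing cells were next split by whether their S phase or their G2/M phase genes held more UMIs. This split was added after the first results had been seen. It gave 3 libraries with enough cells of each kind in OPC-like and neural precursor-like cells and 2 in neuroblast-like cells. G2/M-rich cells were the more numerous in each of these. In OPC-like cells they numbered 58 against 23 S-rich cells in P7 cortex, 91 against 54 in P7 SVZ and 43 against 37 in P15 cortex. The dividing values above mix both kinds and depend on their shares.

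Cdkn2c and Cdkn2d were higher in the G2/M-rich cells throughout. In OPC-like cells Cdkn2c had 27.3 CPM in S-rich and 285 in G2/M-rich cells of P7 cortex, 32.2 and 142 in P7 SVZ, and 48.1 and 398 in P15 cortex. Cdkn2d had 36.4 and 206, 40.3 and 146, and 48.1 and 295. The S-rich cells of both genes thus lay much nearer the non-dividing cells than the G2/M-rich cells did. The differences were 2.78 ± 0.22 and 2.27 ± 0.21 (log2 ± SE; edgeR, adjusted p = 3.47e-35 and 8.47e-24), where 6.6% of 7398 tested genes passed (4.27% higher and 2.32% lower in G2/M-rich cells) and 3 of 4 tested inhibitors rose.

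In neural precursor-like cells the same split gave smaller steps. Cdkn2c had 78.1 and 148 CPM in P2 cortex, 84.6 and 164 in P7 cortex, and 27.2 and 97.6 in P7 SVZ (1.21 ± 0.18, edgeR, adjusted p = 0.000181). Cdkn2d had 43.0 and 134, 53.3 and 123, and 25.9 and 81.5 (1.47 ± 0.18, adjusted p = 2.68e-05). The highest S-rich value lay below the lowest G2/M-rich value for both genes, so the groups did not overlap. Whether the step differs between the classes was not tested.

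Cdkn1a went the opposite way in neural precursor-like cells. It had 46.9 CPM in S-rich and 16.9 in G2/M-rich cells of P2 cortex, 56.4 and 18.5 in P7 cortex, and 61.3 and 13.9 in P7 SVZ, so the groups did not overlap (-1.71 ± 0.25, edgeR, adjusted p = 0.000129). Here 8.01% of 7945 genes passed (4.29% higher and 3.71% lower), and of 5 tested inhibitors 2 rose and 1 fell. Neuroblast-like cells, with values only, showed 48.6 and 23.8 CPM in P7 cortex and 84.2 and 37.9 in P7 SVZ, while Cdkn2c had 66.3 and 222, and 41.3 and 110, and Cdkn2d 64.8 and 331, and 59.4 and 218.

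The 2 other CIP/KIP genes moved less. Cdkn1b had differences of 0.34 ± 0.23 (edgeR, adjusted p = 0.489) and 0.45 ± 0.17 (adjusted p = 0.117) in the 2 classes. Cdkn1c in OPC-like cells had 13.7 and 37.3 CPM in P7 cortex, 24.2 and 50.6 in P7 SVZ, and 7.39 and 13.95 in P15 cortex (1.12 ± 0.37, adjusted p = 0.0432). That call did not hold with DESeq2 (adjusted p = 0.9996), without a filter on low counts (0.0567), without P15 cortex (0.0929) or without P7 cortex (0.132).

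The D-type cyclin genes leaned to the S-rich side. Ccnd2 fell by 1.61 in G2/M-rich OPC-like and by 0.53 in neural precursor-like cells, Ccnd1 by 0.63 and 0.62, and Cdk6 by 0.85 and 0.54 (log2), all past the threshold. Fzr1 rose by 2.37 and 2.09, and E2f1 fell by 1.17 and 1.40.

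**Figure D3:**
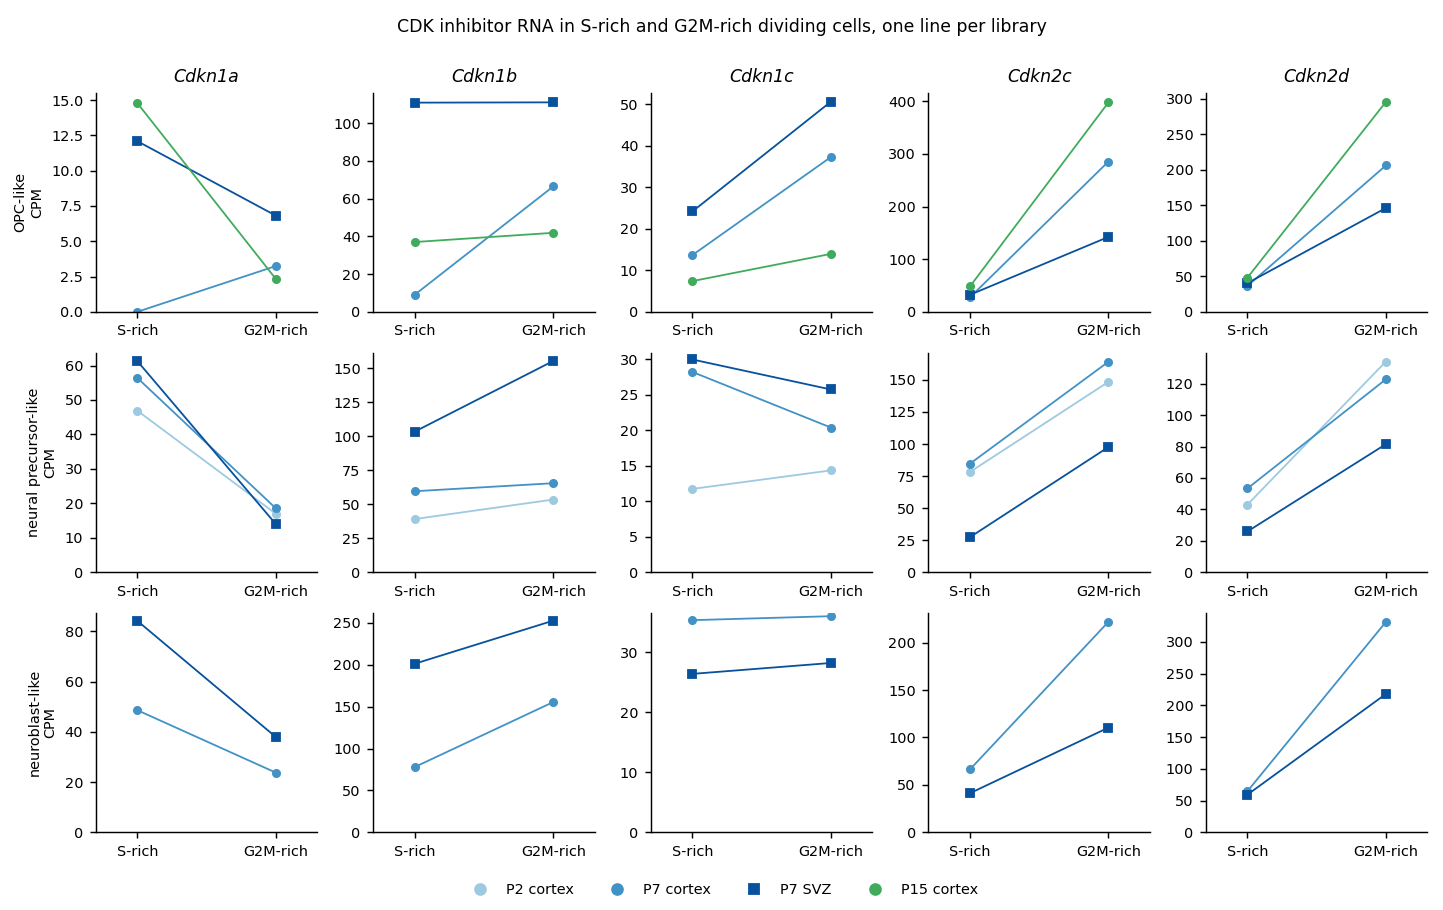
CPM of 5 CDK inhibitor genes in S-rich (left) and G2/M-rich (right) dividing cells of 3 classes, with a line per library on linear axes that start at 0 and differ between panels. Cdkn2c and Cdkn2d go up in all 8 library pairs each, and Cdkn1a goes down in the 3 neural precursor-like and the 2 neuroblast-like pairs.

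The third comparison set the 3 adult libraries against the 4 early ones within each class. In OPC-like cells, Cdkn1a and Cdkn2b rose and no tested inhibitor fell, where 6.46% of 9714 genes passed (2.85% higher and 3.61% lower) and 6 of the 7 inhibitors were tested. Cdkn1a and Cdkn2b passed the count filter only through the adult sums, where they were high. The test could therefore not have found either of them falling. Cdkn1a had 2.90 CPM (3 UMIs) in P2 cortex, 2.08 (5) in P7 cortex, 4.58 (20) in P7 SVZ and 3.05 (9) in P15 cortex, against 37.0 (15), 59.6 (36) and 44.1 (16) in P60 cortex, grey and white matter. Every adult value was above every early one (3.63 ± 0.38, log2 ± SE; edgeR, adjusted p = 0.000503). Among non-dividing cells alone the difference was 4.37 (adjusted p = 0.0028). Most adult cells were in cluster 8, in which P2, P7 and P15 cortex had 0, 2 and 6 UMIs (0 to 3.53 CPM) and the adult libraries 8, 35 and 11 (23.8, 59.1 and 34.3 CPM).

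Cdkn2b had 0, 0.415, 0.458 and 1.70 CPM in the early libraries (0, 1, 2 and 5 UMIs) and 9.88, 13.2 and 16.5 in the adult ones (4, 8 and 6 UMIs). The groups did not overlap, and the difference of 3.86 ± 0.70 (edgeR, adjusted p = 0.00807) rests on few UMIs. It no longer passed without P60 grey matter (adjusted p = 0.0883) or P60 white matter (0.0629). Cdkn2b reached the count filter in only 4 of the 7 runs with a library left out. Without P60 grey matter the number of genes called fell from 628 to 22, with Cdkn1a still among them (3.40, adjusted p = 0.012).

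Several other measures moved with these rises. The summed dissociation-response genes had 1414 to 3726 CPM in early and 2948, 12126 and 3625 in adult OPC-like cells, and 4 of 21 rose, among them Hspa1a (5.09) and Dusp1 (2.11). The summed p53 targets had 726 to 849 against 1000 to 1104 CPM, with 1 of 14, Plk2 (1.27), past the threshold, and Trp53 was not called (-0.54 ± 0.30, edgeR, adjusted p = 0.311). Microglia markers summed to 11.6 to 120 against 129 to 1267 CPM. Cdkn1a in adult OPC-like cells was 73.9%, 13.3% and 28.6% of its microglia-like level. C1qb, a defining microglia gene, was 0.893%, 3.53% and 0.695% of its own. Both Cdkn1a and Cdkn2b were highest in endothelial-like cells. In the adult libraries these had 1286 to 1868 CPM of Cdkn1a and 93.7 to 172 of Cdkn2b. The part of RNA from endothelial-like cells in the OPC-like sums was not tested. Xist ran from 350 to 1439 CPM in early and 3028 to 4521 in adult sums, and Y-linked genes from 121 to 154 CPM in early sums with none in the adult ones. Age, the sex of the animals and the library thus cannot be told apart, and the part of the other measures was not tested.

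The remaining inhibitors gave no stage call in OPC-like cells. Cdkn2c had -0.63 ± 0.56 (edgeR, adjusted p = 0.561), Cdkn2d -0.37 ± 0.26 (0.432), Cdkn1c -0.20 ± 0.38 (0.811) and Cdkn1b 0.02 ± 0.46 (0.985). The intervals are wide: that of Cdkn2c ran from -1.72 to 0.46. Of the genes they act on, Cdk6 (-1.33) and Cdk4 (-1.01) fell, as did Ccna2 (-1.93), E2f1 (-2.45) and Ezh2 (-1.74), and none of the 11 turnover genes passed.

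Endothelial-like cells also had higher Cdkn1a in the adult, but early and adult cells lay partly in different clusters. Of the 84 cells of P7 cortex, 81 were in cluster 42, all adult cells were in cluster 28, and P15 cortex had 35 cells in cluster 28 and 29 in cluster 42. The values were 331 CPM in P7 cortex and 433 in P15 cortex, against 1868, 1729 and 1286 in P60 cortex, grey and white matter, with no overlap (2.13 ± 0.31, edgeR, adjusted p = 0.00162). Within cluster 28, P15 cortex had 416 CPM, also below the 3 adult libraries, and in cluster 42 it had 445 against 336 in P7 cortex. Here 9.88% of 4259 genes passed (5.33% higher and 4.56% lower), and 1 of 4 tested inhibitors did. The dissociation-response genes summed to 7140 and 6460 CPM in the early and 12179, 37272 and 22172 in the adult libraries. The p53 targets summed to 1226 and 1199 against 1752, 2649 and 2260 CPM, with Polk (3.43), Fas (3.30) and Btg2 (2.03) past the threshold. Their part in the Cdkn1a rise was not tested.

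Cdkn1c in endothelial-like cells had 85.2 CPM in P7 cortex and 319 in P15 cortex against 408, 426 and 266 in the adult (0.94 ± 0.53, edgeR, adjusted p = 0.325). Without P15 cortex it was 2.11 (adjusted p = 0.000263), so 1 library decides this value. By cluster, P15 cortex had 709 CPM in cluster 28, above the 3 adult libraries there, and 34.0 in cluster 42, where P7 cortex had 75.9. Age and cluster makeup cannot be told apart for this gene. Cdkn2b, which had its highest levels in these cells, had -0.55 ± 0.33 (adjusted p = 0.34), with an interval from -1.19 to 0.09.

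In the other classes few genes passed at all: 0.253% in astrocyte-like, 0.0319% in COP-like, 0.0314% in microglia-like and 0.0224% in neuroblast-like cells, and none of 2778 (0.0%) in mural-like cells, where DESeq2 called 15. No inhibitor was among them. P15 cortex, the early library nearest the adult in age, changed many of these values when left out. In astrocyte-like cells Cdkn1a had 8.10, 11.3 and 3.62 CPM in P2 cortex, P7 cortex and P7 SVZ, 57.7 in P15 cortex and 37.2, 28.9 and 14.5 in the adult libraries. The difference was 0.47 ± 0.87 (edgeR, adjusted p = 0.763) and 1.88 without P15 cortex (adjusted p = 0.0075), where Cdkn2c also passed (-1.26, adjusted p = 0.0264).

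In COP-like cells the fall of Cdkn1c noted above had a difference of -2.33 ± 0.71 (edgeR, adjusted p = 0.343). It passed with DESeq2 (-2.39, adjusted p = 0.00645), with no filter on low counts (-2.43, adjusted p = 1.44e-06) and without P15 cortex (-2.63, adjusted p = 0.0181). In microglia-like cells Cdkn2c had -2.37 ± 0.65 (adjusted p = 0.211), which passed with DESeq2 (-2.32, adjusted p = 0.0144) and without P15 cortex (-2.73, adjusted p = 0.0144). In mural-like cells Cdkn1a had 2.50 ± 0.88 (adjusted p = 0.542), which passed with no filter (2.55, adjusted p = 0.00342), without P15 cortex (3.42, adjusted p = 3.87e-07) and without P7 SVZ (1.94, adjusted p = 0.0401). The directions of these 3 are thus the same in each setting named, and their calls are not.

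The stage difference of OPC-like cells was also set against those of astrocyte-like and microglia-like cells. No inhibitor passed in either interaction test, where 1.28% and 0.0481% of genes did. Cdkn1a had 2.80 ± 1.01 (edgeR, adjusted p = 0.2) and 3.39 ± 0.84 (adjusted p = 0.211). The rise of Cdkn1a is therefore not shown to be larger in OPC-like cells than in these classes.

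**Figure D4:**
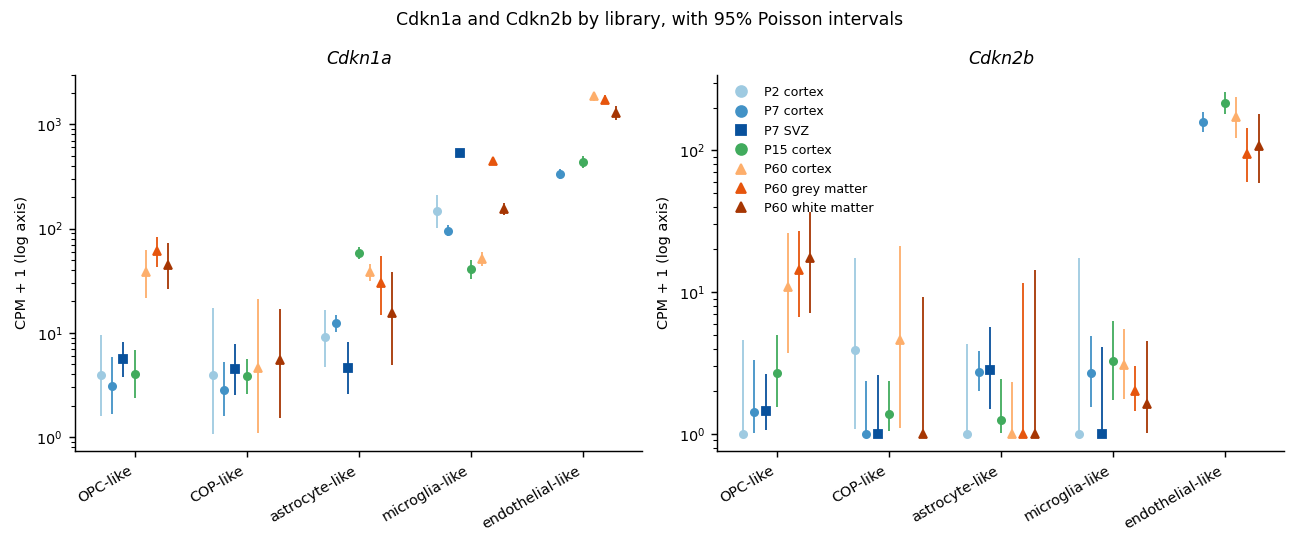
Cdkn1a (left) and Cdkn2b (right) in 5 classes, as CPM + 1 on a log axis with 95% Poisson intervals, which cover counting error only. Circles and squares are early libraries and triangles adult ones, and the adult OPC-like points lie above the early ones for both genes, as the adult endothelial-like points do for Cdkn1a.

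Both P7 libraries held 7 classes in common, which allowed a comparison of P7 SVZ with P7 cortex with 1 library per side and no test. Cdkn1b was higher in P7 SVZ in all 7, with Poisson intervals apart in each. It had 101 against 37.8 CPM in OPC-like, 41.4 against 20.7 in COP-like, 135 against 53.5 in astrocyte-like, 159 against 66.4 in neural precursor-like, 242 against 121 in neuroblast-like, 515 against 118 in excitatory intermediate precursor-like and 31.1 against 14.998 in microglia-like cells. Each ratio was above 1.5, which held for 2.73% of the 8585 genes compared. The region, the strain and the library itself cannot be told apart.

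Markers of neuroblast-like cells, the class with the highest median of Cdkn1b, were low in the OPC-like sums. OPC-like Cdkn1b was 41.6% of the neuroblast-like level in P7 SVZ and 31.1% in P7 cortex. Neuroblast markers (Dlx1, Dlx2, Dlx5, Sp8 and Sp9) were at 1.51% and 0.567%. In P7 SVZ, Cdkn1b was higher still in excitatory intermediate precursor-like cells (212.5% of the neuroblast-like level), whose markers were not compared here. The part of RNA from other classes in the OPC-like values was not tested.

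Cdkn2c went the other way, lower in P7 SVZ in all 7 classes with intervals apart in 6. The values were 46.5 against 88.5 CPM in OPC-like, 9.16 against 19.6 in COP-like, 25.3 against 52.5 in astrocyte-like, 28.8 against 67.4 in neural precursor-like, 68.6 against 101 in neuroblast-like and 40.4 against 97.0 in microglia-like cells. In neuroblast-like cells this was short of the 1.5-fold step, which 3.49% of genes reached downwards in all 7 classes. Intervals apart and lower in at least 6 classes were found for 6.01% of genes. Cdkn2d had overlapping intervals in all 7 whole classes, while in dividing OPC-like, neural precursor-like and neuroblast-like cells alone it was lower in P7 SVZ, as given above.

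P60 white and grey matter, also 1 library each, shared 5 classes. Cdkn1a was lower in white matter in microglia-like (154 against 447 CPM) and endothelial-like cells (1286 against 1729) and higher in mature oligodendrocyte-like cells (92.2 against 31.2). Cdkn1c was lower in white matter OPC-like cells (19.3 against 62.9 CPM), and Cdkn1b intervals overlapped in all 5 classes. In white matter microglia-like cells Cdkn2c (13.2 against 3.93 CPM) and Cdkn2d (20.7 against 10.02) were higher. Intervals were apart, in either direction, for 30.1% of all genes in microglia-like, 14.4% in mature oligodendrocyte-like, 10.6% in OPC-like and 6.22% in endothelial-like cells. P60 grey matter was also the adult library with the most barcodes over the mitochondrial limit, whose part in these values was not tested.

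**Figure D5:**
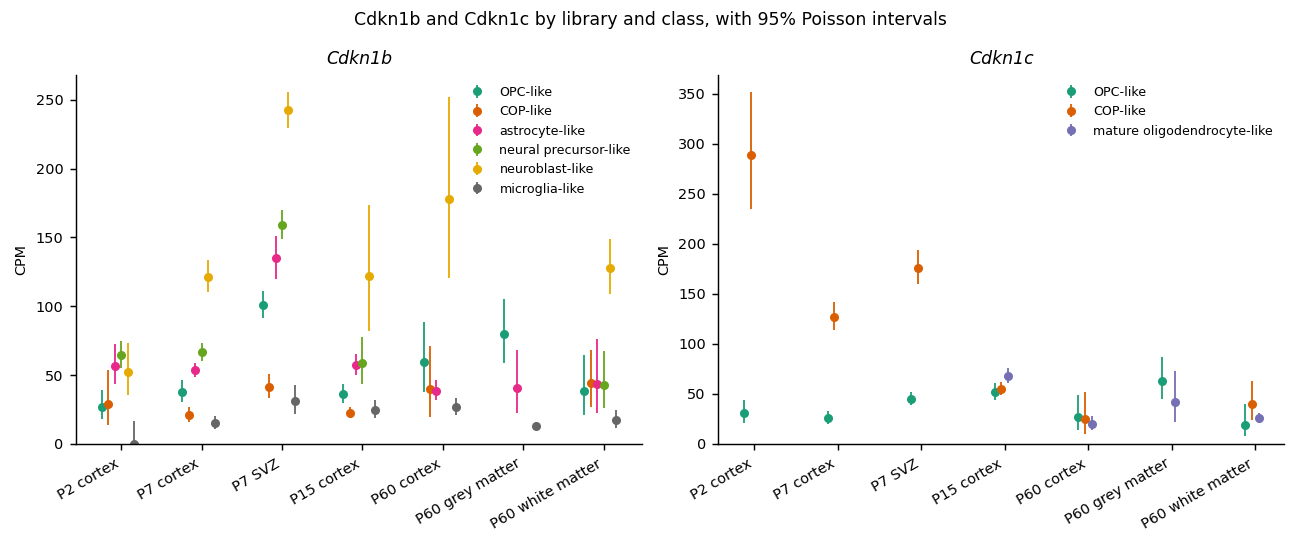
Cdkn1b in 6 classes (left) and Cdkn1c in the oligodendrocyte lineage (right) by library, in CPM with 95% Poisson intervals, which cover counting error only. In P7 SVZ, Cdkn1b is above P7 cortex in every class drawn, and Cdkn1c of COP-like cells runs from 289 CPM in P2 cortex to 25.3 in P60 cortex.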

How the data were processed

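Gene by barcode matrices of UMI counts were used as deposited. They came from Cell Ranger 3 with the mm10 build, per the submitters' processing notes. Whether counting used strand is not given in the sources used here, so reads of overlapping antisense genes cannot be told apart.

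Barcodes needed at least 500 genes and at most 10% mitochondrial UMIs. Doublets were called with Scrublet in scanpy 1.11.5 (expected rate 0.06, 305 removed). Cells were scaled to 10000 UMIs and clustered on 2000 variable genes (30 components, 15 neighbours, Leiden with leidenalg 0.10.2, resolution 1.5, seed 1). The 7 inhibitors and all genes of the S and G2/M phase lists were kept out of the variable genes. A cluster was named from at least 3 markers raised 2-fold in at least 10% of its cells.

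Cells were thinned to 2000 UMIs and called dividing with at least 3 UMIs of cell cycle genes. Of 97 measured list genes, the 59 under 10 CPM in non-dividing classes were used, and both this limit and the cluster naming rule were chosen after seeing the data. Cells with 1 or 2 such UMIs, or too shallow, were left out.

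Counts were summed per library and class (at least 20 cells, or 15 per call) and tested with edgeR 4.0.16 (R 4.3.3; TMM, filterByExpr, robust quasi-likelihood F test, Benjamini-Hochberg threshold of 0.05 over all genes tested). Dividing comparisons paired the 2 kinds of cells of the same library, with library as a block, since they come from the same library. All genes of the S and G2/M phase lists, used for the calls or not, were left out of these tests. Alternatives were DESeq2 1.42.0, library size scaling, no count filter, no block, a call of 5 UMIs, 5% mitochondrial UMIs, sums of at least 50 cells, non-dividing cells only and leaving out each library. The edgeR test was also run on simulated counts, with dispersions set by hand, for the OPC-like dividing and adult against early comparisons only. The other comparisons were not simulated.

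The members and all gene lists were chosen with earlier results of these data known. Text names the 7 inhibitors, up to 4 called genes per list with the largest change, and fixed regulators (Trp53, Mdm2, Rb1, D-type cyclins, CDK2, CDK4, CDK6, Mki67, Top2a). Positions are from GENCODE M21.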

Additional observations from a re-analysis of the deposited data

Results flagged for a closer look

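Values that stood far from the others were looked for in 62 groups of 4 libraries, and 13 were found, where chance alone flags about 1 in 20 separate groups. These groups are not separate, since non-dividing sums are part of the class sums, so no excess over chance can be read from the number. Cdkn1b was high in P7 SVZ in OPC-like cells (101 CPM against 27.1 to 37.8 in the other early libraries), astrocyte-like cells (135 against 53.5 to 57.2) and neural precursor-like cells (159 against 58.8 to 66.4). It was also high there in non-dividing OPC-like cells (96.7 CPM against 23.2 to 35.5) and non-dividing neural precursor-like cells (172 against 70.4 to 83.0). Cdkn2d in neural precursor-like cells of P7 SVZ was low among dividing cells (56.3 CPM against 104 to 112) and high among non-dividing ones (45.9 against 34.5 to 36.2).

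P15 cortex stood apart for Cdkn1a in astrocyte-like cells (57.7 CPM against 3.62 to 11.3) and in non-dividing neural precursor-like cells (39.5 against 7.32 to 10.7). It did so for Cdkn2c in non-dividing neural precursor-like cells (55.4 CPM against 13.9 to 20.6), and for Cdkn2d in COP-like (93.7 against 62.4 to 64.3) and astrocyte-like cells (54.1 against 44.3 to 45.9). P2 cortex stood apart for Cdkn1c in astrocyte-like cells (17.1 CPM against 0.259 to 2.72).

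The change from non-dividing to dividing cells differed between OPC-like and neural precursor-like cells for Cdkn2c (0.97, log2) and Cdkn1b (0.61), by edgeR's interaction test. Among clusters without a name, cluster 38 of P7 SVZ, led by Trbc2, Rprml, Hs3st4 and Nxph3, had 245 CPM of Cdkn2d, above the highest named class of that library (226 CPM).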

How the results depend on the processing

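Cdkn2c and Cdkn2d in dividing cells kept their direction and call in all 3 classes under every alternative run. The pairing by library matters for counts: with no replicate block, genes called went from 2237 to 386 in OPC-like, from 6161 to 3691 in neural precursor-like and from 3328 to 1040 in neuroblast-like cells, and Cdkn1a in neuroblast-like cells had 1.23. No other inhibitor call was lost without the block. DESeq2 gave 843 genes in dividing OPC-like and 1702 in neuroblast-like cells, and 1406 genes passed in OPC-like cells with up to 5% mitochondrial UMIs. It gave 1.26 for Cdkn1a in neural precursor-like cells. Leaving out each library gave 1983 to 3069 genes in neuroblast-like cells, 1494 to 2186 in OPC-like cells and 1.04 to 1.999 for Cdkn1a in neural precursor-like cells.

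For adult against early, genes called moved from 27 to 1045 (DESeq2), 554 (no filter) and 0 to 2648 (each library left out) in astrocyte-like cells, from 3 to 87, 246, 1 (non-dividing cells) and 0 to 86 in COP-like cells, and from 3 to 274, 43, 5 (library size) and 2 to 681 in microglia-like cells. Endothelial-like cells went from 421 to 860 (no filter), 202 (non-dividing cells), 207 (at least 50 cells) and 207 to 687. Mural-like cells went from 0 to 15 (DESeq2), 150 (no filter) and 0 to 757, and neuroblast-like cells from 2 to 7, 49, 6 (non-dividing cells), 0 (up to 5% mitochondrial UMIs) and 0 to 3. OPC-like cells went from 628 to 1158 (no filter), 229 (non-dividing cells) and 22 to 1205, with Cdkn2b at 3.71 to 4.04. The stage difference against microglia-like cells went from 6 to 16 genes by library size.

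For the phase split, DESeq2 gave 133 genes instead of 488 in OPC-like and 159 instead of 636 in neural precursor-like cells, and leaving out libraries 293 to 380 and 288 to 728. Cdkn1c in OPC-like cells had 1.15 (DESeq2), 1.17 (no filter) and 1.05 to 1.14 in the 2 runs with a library left out that tested it.

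Directions turned only for differences that were not called. Among stage differences these were Cdkn2d in COP-like (-0.027, no filter), microglia-like (0.35), neuroblast-like (0.044) and OPC-like cells (0.012, non-dividing cells for these 3). Cdkn2c in OPC-like cells had 0.22 among non-dividing cells, Cdkn1b -0.032 with no filter and Cdkn1c 0.051 with up to 5% mitochondrial UMIs. With libraries left out, the ranges that crossed 0 were -0.29 to 0.66 (Cdkn1b) and -0.93 to 0.075 (Cdkn1c) in OPC-like cells, -1.01 to 1.49 (Cdkn1a) and -0.30 to 0.25 (Cdkn1b) in microglia-like cells, -0.16 to 0.605 (Cdkn1b) and -0.70 to 0.28 (Cdkn2c) in neuroblast-like cells, -0.64 to 1.04 (Cdkn2c) and -0.019 to 0.28 (Cdkn2d) in COP-like cells, and -1.48 to 1.48 (Cdkn1c) in mural-like cells. Cdkn2c in COP-like cells was tested in only 3 of the 6 runs with a library left out. For Cdkn1c in dividing neural precursor-like cells the range was -0.057 to 1.35. The cause of these changes was not tested. Calls from the full cell cycle lists, sums of at least 50 COP-like, mural-like or neuroblast-like cells, and mural-like cells restricted by division or to 5% mitochondrial UMIs left too few libraries and were not run. Depth limits Cdkn2a and Cdkn2b most.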

Other observations

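Genes whose levels ran most like each inhibitor over 66 sums of class and library are given as a description, since the sums share libraries and classes (Pearson's r of log2(CPM + 1), 11997 genes). Cdkn2c was most like Hmgb2 (0.80), a chromatin protein of dividing cells that is in the G2/M list, followed by Sept10 (0.78) and H2afv (0.77). Cdkn2d was most like Cfl2 (0.81) and Cttn (0.81), both of the actin cytoskeleton, and Selenow (0.80). Cdkn2b was most like Mecom (0.86), Bsg (0.85) and Foxl2 (0.85). Cdkn1a was most like Fxyd5 (0.77), Cast (0.77) and Pdgfb (0.76). Cdkn1b was most like Zfp266 (0.75), Rab2b (0.73) and Zbtb20 (0.73), and Cdkn1c was most like Rab18 (0.68), Gnb4 (0.67) and Dstn (0.63). Cdkn2a, with a mean under 5 CPM, was given no such gene.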
